A study of Mus musculus with 2 samples.

Results

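Of 55487 genes counted in mouse Langerhans cells, 9 transcription factor genes that set Langerhans and myeloid identity are described here: Id2, Runx3, Spi1, Cebpa, Cebpb, Klf4, Zeb2, Batf3 and Zbtb46. They were taken by symbol from the GENCODE M21 annotation of GRCm38, and each symbol matched 1 gene. The cells were sorted from ears as positive for CD207 (langerin) and MHC class II, carried the genotype HTR2A-/- (no serotonin 2A receptor), and were kept for 24 hours with imiquimod, a Toll-like receptor 7 agonist, and an agent labelled a-CD40L. There were 2 samples in 1 group, called library 1 (69925160 counts) and library 2 (42264685 counts), so no value below is a difference between genotypes or treatments. The series title calls the cells monocyte-derived; the sources used here do not give the strain, the age, the deleted part of the gene or the mice each sample came from.

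Langerhans cells are antigen-presenting cells of the epidermis that share descent with macrophages and behavior with dendritic cells. PU.1, the product of Spi1, opens myeloid enhancers, and C/EBP factors act with it in granulocyte and monocyte programs. In mice, Runx3 and Id2 are required for the Langerhans cell network of the skin, Runx3 downstream of TGF-β. Batf3 and Zbtb46 are known from conventional dendritic cells, Batf3 for the type 1 lineage, and Klf4 and Zeb2 from monocytes and type 2 dendritic cells. Several of these genes also act outside myeloid cells: Klf4, Cebpa and Cebpb in differentiating keratinocytes, and Id2 and Runx3 in lymphocytes.

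Promoter windows of 4 of these genes are shown because they carry short motifs of the same families of factors or of general promoter elements, and they were chosen after the matches were seen. They are the 250 bases before a RefSeq start on GRCm38.p6, and 8 of the 9 genes had such windows, 12 in all. Capitals mark matches to any of 8 motifs, each searched on both strands. The RUNX motif was spelled TGTGGT, after the core that Runt-domain proteins read. The motif of the ZEB repressors was spelled CAGGTG, which is also an E-box that E proteins can read. For AP-1 and BATF dimers the letters TGACTCA were used. The KLF motif was CCACCC, a box read by Krüppel-like factors. The general promoter elements were the CCAAT box, spelled as its name, and the TATA box, searched as the run TATAAA. The PU.1 motif was spelled GAGGAAGT, and for C/EBP factors the letters were TTGCNNAA. No match of 1 motif overlaps another in these 4 windows.
Runx3, chr4:135120395-135120644, plus strand: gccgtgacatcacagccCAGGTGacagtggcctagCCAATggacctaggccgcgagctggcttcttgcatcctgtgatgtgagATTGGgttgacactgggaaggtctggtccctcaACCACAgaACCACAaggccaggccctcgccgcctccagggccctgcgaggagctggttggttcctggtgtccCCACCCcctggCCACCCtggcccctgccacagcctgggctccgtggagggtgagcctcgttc
Zeb2, chr2:45110278-45110527, minus strand: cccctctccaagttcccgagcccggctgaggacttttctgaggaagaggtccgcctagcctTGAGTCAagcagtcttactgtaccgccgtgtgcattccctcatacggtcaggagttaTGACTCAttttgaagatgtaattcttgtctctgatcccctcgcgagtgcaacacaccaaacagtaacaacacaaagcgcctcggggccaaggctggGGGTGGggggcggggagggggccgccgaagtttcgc
Id2, chr12:25096093-25096342, minus strand: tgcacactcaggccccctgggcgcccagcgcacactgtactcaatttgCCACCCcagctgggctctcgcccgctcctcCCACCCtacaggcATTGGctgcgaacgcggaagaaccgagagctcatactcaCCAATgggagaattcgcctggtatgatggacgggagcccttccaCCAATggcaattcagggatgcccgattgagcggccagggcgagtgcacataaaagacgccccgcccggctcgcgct
Cebpa, chr7:35119043-35119292, plus strand: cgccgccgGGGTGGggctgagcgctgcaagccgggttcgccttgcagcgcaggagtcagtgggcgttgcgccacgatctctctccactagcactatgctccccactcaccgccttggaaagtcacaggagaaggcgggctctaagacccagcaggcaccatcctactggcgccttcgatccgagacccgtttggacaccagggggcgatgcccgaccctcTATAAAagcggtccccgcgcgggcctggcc

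The upstream Runx3 window held the RUNX motif in 2 places, starting 134 and 126 bases before the start, a motif found in 14% of all 32851 windows of this length. This Zeb2 window held the AP-1 and BATF motif in 2 places, 189 and 132 bases before the start, against 4.46% of all windows with at least 1 match. The other Runx3 window held no RUNX motif, and the other Zeb2 windows held no AP-1 and BATF motif. The Id2 window held the CCAAT box in 3 places (33.8% of all windows), and the Cebpa window a TATA box 30 bases before the start (12.4%). Among the 12 windows, the KLF motif was in 7, against 28.1% of all windows, and the PU.1 motif in 0, against 2.44%. The 12 windows are not all separate, since some of Zeb2 overlap. The counts are sums per gene and do not show which start was used, so no level below is tied to a window.

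All 9 genes were expressed above background in library 1 and 8 of 9 in both libraries. Background was taken as the 95th percentile of 1135 protein-coding olfactory receptor genes, which are known from sensory neurons of the nose, at 0.761 CPM per kb in library 1 and 1.58 in library 2, where CPM is a count divided by the library total and brought to one common scale, and kb is the length of a gene's joined exons. Of 21974 protein-coding genes, 47.3% passed it in both libraries, 56.2% in library 1 and 50.4% in library 2. Batf3 missed it in library 2, at 1.41 CPM per kb, where 92.2% of the olfactory receptor genes lay lower. Zbtb46 was the nearest above it there, at 2.39 CPM per kb. Error from counting was small: the exact 95% Poisson interval reached at most 6.91% from the value, except for Batf3 in library 2 (22.2%).

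The order of the levels put a C/EBP factor first and the dendritic cell factors last. By mean CPM per kb over the 2 libraries (SD, n = 2) Cebpb led with 152.6 ± 46.1, followed by Klf4 with 87.3 ± 3.03 and Id2 with 86.5 ± 34.9. Spi1 had 42.5 ± 30.4, Runx3 33.2 ± 23.4 and Cebpa 27.3 ± 4.92. Zeb2 had 11.8 ± 7.06, Batf3 5.32 ± 5.53 and Zbtb46 3.58 ± 1.69. Of 8 neighboring pairs in this order, 2 had ranges that did not overlap between libraries: Cebpb above Klf4, and Cebpa above Zeb2. Klf4 and Id2, Runx3 and Cebpa, and Batf3 and Zbtb46 changed places between the libraries. Zeb2 has 29 annotated transcripts whose exons join to 19942 bases, and per kb of its longest transcript (9124 bases) its mean level was 25.7 CPM per kb, close to that of Cebpa (27.4). By that length the ranges of Cebpa and Zeb2 overlapped, with Zeb2 the higher in library 1 and Cebpa in library 2. The separation of this pair thus depended on the length used.

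**Figure D1:**
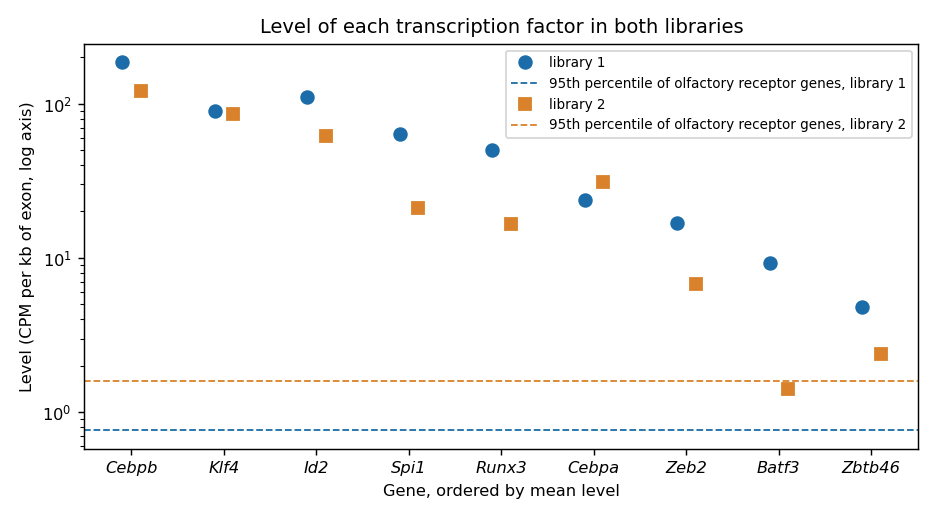
Level of each of the 9 genes in CPM per kb of exon (log axis), with library 1 as circles and library 2 as squares; dashed lines are the 95th percentile of olfactory receptor genes in each library. The level of Cebpb was 185 in library 1 and 120.0 in library 2, and Batf3 (1.41) lay under the line of library 2 (1.58).

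The 2 samples were not alike in cell content markers, and this stands beside every ratio below. The 8 genes of the sort and of antigen presentation were above background in both libraries (8 of 8), against 47.3% of protein-coding genes. Cd207 had 1125 CPM in library 1, against 1052 CPM in library 2, and H2-Ab1 3486 and 1953 CPM. By CPM, 6 of these genes were higher in library 1. Epcam (155 and 178 CPM) and Cdh1 (481 and 793 CPM) were higher in library 2. Keratinocyte genes were above background in both libraries too (11 of 11). They summed to 4330 CPM in library 1 and 15176 CPM in library 2, led by Krt14 and Dsp. Monocyte and macrophage genes (5 of 8 above background in both libraries) summed to 812 and 419 CPM, led by Cd14 and Adgre1, and T cell genes (5 of 7) to 194 and 124 CPM, led by Cd3g and Thy1. By CPM, 7 of the monocyte and macrophage genes were higher in library 1, and Mrc1 (82.4 and 134 CPM) in library 2. Of the T cell genes, 4 were higher in library 1. Thy1 (30.9 and 68.3 CPM), Cd4 (6.25 and 7.95 CPM) and Cd8a (1.59 and 1.96 CPM, below background in both) were higher in library 2. Gata3 carried most of the natural killer and innate lymphoid list (2 of 4), with 27.9 CPM in library 1 and 226 CPM in library 2. The other genes of this list were nearer even, with 3.23 and 4.76 CPM of Klrb1c, 3.29 and 3.48 of Eomes and 1.12 and 1.32 of Ncr1. The sums in library 1 and library 2 were 154 and 94.9 CPM for type 1 dendritic cell genes (3 of 6 above background in both), 231 and 84.8 for type 2 dendritic cell genes (2 of 4), 114 and 42.7 for fibroblast (0 of 6), 71.4 and 29.4 for endothelial (1 of 4) and 69.6 and 29.6 for neutrophil genes (3 of 5). They were 27.7 and 20.9 CPM for mast cell (1 of 4, with Mcpt4 at 0 counts in library 1), 6.54 and 18.5 for melanocyte (0 of 5) and 6.91 and 6.65 for B cell genes (0 of 3). Sirpa carried most of the type 2 dendritic cell sum, with 216 CPM in library 1 and 61.4 in library 2. Mgl2 was near even (12.3 and 11.9 CPM). Clec10a (1.69 and 9.23 CPM) and Cd209a (0.644 and 2.32 CPM) were higher in library 2. Cd209a was below background in both libraries and Clec10a in library 1. The part of other cells in the ratios below was not tested, and in such bulk samples fewer cells of a type and less RNA per cell cannot be told apart. Nothing in the labels says that the samples came from separate cultures or mice, so the spread between them may be technical. The targeted gene Htr2a was below background, with 0.196 CPM per kb in library 1 and 0.494 in library 2.

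Relative to the other genes, 7 of the 9 factors were at least 2-fold higher in library 1 and none at least 2-fold higher in library 2. The ratios are library 1 over library 2 with TMM scaling, over 30373 genes with at least 1 CPM in 1 library, of which 12.7% were at least 2-fold higher in library 1 and 24.8% at least 2-fold higher in library 2. The median log2 ratio was 1.50 for the 9 genes and -0.15 for all genes tested. With total counts in place of TMM, all log2 ratios are lower by 0.50: 4 of 9 factors were then at least 2-fold higher in library 1, against 5.51% of all genes (38.9% were at least 2-fold higher in library 2), and the medians were 1.00 and -0.65. The median of the 9 genes lay 1.65 above that of all genes. The scaling cannot change this difference, since it moves every log2 ratio by the same amount. A test within 1 group of 2 samples has no residual degrees of freedom, so these ratios have no p-value, and their exact 95% binomial intervals cover counting error only.

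**Figure D2:**
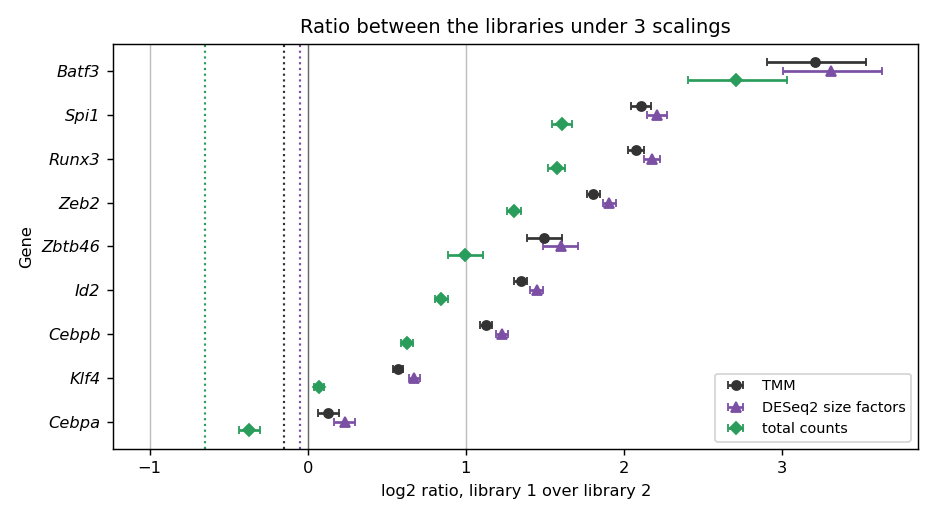
Log2 ratio of library 1 over library 2 for each gene with TMM (circles), DESeq2 size factors (triangles) and total counts (diamonds); bars are exact 95% binomial intervals, dotted lines the median of all genes under the same scaling, and grey lines 2-fold. Batf3 lay farthest right (3.21 with TMM), and Cebpa lay at 0.13 with TMM and at -0.37 with total counts.

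The factors tied to the Langerhans cell network differed in size of ratio. Runx3, a Runt-domain factor (ENSMUSG00000070691, GRCm38 chromosome 4, 135120652 to 135177990, plus strand), had 17399 counts or 249 CPM in library 1 and 3527 counts or 83.5 CPM in library 2. The TMM ratio was 4.22 (95% interval 4.07 to 4.38), and by total counts it was 2.98. Its paralog Runx1 had 152 CPM in library 1 and 51.4 in library 2, and Runx2 33.5 and 11.3 CPM, so by total counts these genes had ratios of 2.95 (Runx1) and 2.96 (Runx2), near that of Runx3. Runx2 was below background in library 2 (1.28 CPM per kb), so its ratio is taken against a value within background. Per kb, Runx3 exceeded Runx1 by 3.93 times in library 1 (95% interval 3.84 to 4.03) and 3.90 times in library 2 (3.70 to 4.12). This balance is free of any scaling between libraries, and its intervals overlapped. Per kb of the longest transcripts it was 2.47 and 2.45. Cbfb, the shared partner that RUNX proteins need to bind DNA stably, had 80.6 CPM in library 1 and 42.0 in library 2.

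Id2 encodes a helix-loop-helix protein without a DNA-binding region, which holds E proteins away from DNA (ENSMUSG00000020644, chromosome 12, 25093799 to 25097140, minus strand). It had 18952 counts or 271 CPM in library 1 and 6371 counts or 151 CPM in library 2, a TMM ratio of 2.54 (95% interval 2.47 to 2.62). By total counts the ratio of Id2 was 1.80, under 2-fold. Its paralog Id3 went the other way, with 16.0 CPM in library 1 and 51.4 CPM in library 2. Per kb, Id2 exceeded Id3 by 12.4 times in library 1 (95% interval 11.7 to 13.2) and by 2.16 times in library 2 (2.05 to 2.26). Id1 had 12.8 and 11.9 CPM, and Id4 was below background in both libraries. Of the E protein genes, Tcf3 (41.1 CPM in library 1 and 33.6 in library 2) and Tcf12 (65.0 and 55.4 CPM) were above background in both libraries, and Tcf4 (49.7 and 32.1 CPM) in library 1. Per kb, Id2 stood above each of these E protein genes, of which Tcf3 was the highest with 10.2 CPM per kb in library 1 and 8.32 in library 2, against 111 and 61.8 for Id2.

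Spi1, which encodes the ETS factor PU.1 (ENSMUSG00000002111, chromosome 2, 91082390 to 91115756, plus strand), had 12062 counts or 172 CPM in library 1 and 2390 counts or 56.5 CPM in library 2. The TMM ratio was 4.32 (95% interval 4.13 to 4.51). The interferon regulatory factors that bind DNA together with PU.1 had ratios of like size: Irf8 had 249.98 CPM in library 1 and 87.7 in library 2, and Irf4 204 and 77.8 CPM, with log2 TMM ratios of 2.01 for Irf8 and 1.89 for Irf4 beside 2.11 for Spi1. The paralog Spib, with 1.59 and 2.89 CPM, was below background in both libraries, and Spic, with 8.94 and 4.28 CPM, in library 2. Per kb, Spi1 exceeded Spic by 27.5 times in library 1 and by 18.8 times in library 2.

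The C/EBP genes, whose products bind DNA as basic leucine zipper dimers, had smaller ratios between the libraries than Runx3 and Spi1. Cebpb (ENSMUSG00000056501, chromosome 2, 167688915 to 167690418, plus strand), known from inflammatory macrophages, had 19482 counts or 279 CPM in library 1 and 7627 counts or 180.5 CPM in library 2, with a TMM ratio of 2.18 (95% interval 2.13 to 2.24). By total counts this ratio was 1.54, under 2-fold. Cebpa (ENSMUSG00000034957, chromosome 7, 35119293 to 35121928, plus strand), needed for granulocyte and monocyte progenitors, had 4398 counts or 62.9 CPM in library 1 and 3434 counts or 81.3 CPM in library 2. Its TMM ratio was 1.10 (95% interval 1.05 to 1.15), while by total counts it was 0.774, so the direction depended on the scaling. Per kb, Cebpb exceeded Cebpa by 7.76 times in library 1 (95% interval 7.51 to 8.02) and by 3.89 times in library 2 (3.74 to 4.05). Cebpg, a family member without an activation domain, had 48.5 CPM in library 1 and 78.0 in library 2, and Cebpd 32.05 and 33.5 CPM. Ddit3, the stress-induced member CHOP, had 33.6 and 37.3 CPM. Cebpe, a granulocyte factor, had 0 counts in library 1, which allows up to 0.0429 CPM at a floor of 3 counts, and 0.970 CPM in library 2, below background. The single exon of Cebpb overlaps 312 bases of Tmem189 on the opposite strand, 20.7% of its length; whether counting used strand is not stated, and Tmem189 had 6112 counts in library 1 and 2657 in library 2.

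Klf4 was the steadiest of the 9 genes by total counts. This Krüppel-like zinc finger factor (ENSMUSG00000003032, chromosome 4, 55527143 to 55532466, minus strand) had 19080 counts or 273 CPM in library 1 and 10980 counts or 259.8 CPM in library 2, a ratio of 1.05 by total counts and 1.49 with TMM (95% interval 1.45 to 1.52). Scaled to the sort marker Cd207 it was 0.982 (0.960 to 1.01). Its paralog Klf5, known from epithelia, had 78.4 CPM in library 1 and 425 CPM in library 2. Per kb, Klf4 exceeded Klf5 by 5.94 times in library 1 (95% interval 5.76 to 6.12) and by 1.04 times in library 2 (1.02 to 1.07); per kb of the longest transcripts the second value was 0.676. Klf6, an early-response member, was the most abundant of the list, with 845 and 522.5 CPM. Klf2 had 49.5 and 24.4 CPM, and Klf10, induced by TGF-β, 93.6 and 77.3 CPM. Klf4 stayed below Klf6 per kb in both libraries, at 0.465 and 0.716 times its level. In library 2 keratinocyte genes summed to 3.51 times their level in library 1; the part of keratinocytes in the Klf4 and Cebpa values was not tested.

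Zeb2, a zinc finger and homeodomain repressor (ENSMUSG00000026872, chromosome 2, 44983632 to 45117395, minus strand), had 23368 counts or 334 CPM in library 1 and 5712 counts or 135 CPM in library 2. The TMM ratio was 3.50 (95% interval 3.40 to 3.60). Its paralog Zeb1 was more even, with 179.9 and 141 CPM, so that per kb Zeb2 reached 0.956 times the level of Zeb1 in library 1 (95% interval 0.935 to 0.977) and 0.493 times in library 2 (0.475 to 0.511). Per kb of the longest transcripts these values were 1.18 and 0.609, so which gene is higher in library 1 depended on the length used. The antisense gene Zeb2os, which overlaps 653 bases of Zeb2 exon (3.27%), had 517 counts in library 1 and 101 in library 2.

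The factors of conventional dendritic cells were the lowest of the 9. Batf3, a basic leucine zipper factor (ENSMUSG00000026630, chromosome 1, 191097847 to 191108945, plus strand), had 1030 counts or 14.7 CPM in library 1 and 95 counts or 2.25 CPM in library 2, where it lay within background. Its TMM ratio of 9.27 (95% interval 7.51 to 11.6) was the widest of the 9 and is taken against a value within background. Its paralog Batf had 9.05 CPM in library 1 and 2.84 in library 2, and Batf2 2.99 and 3.08 CPM. The JUN proteins that pair with BATF factors were far more abundant: Jun had 947 CPM in library 1 and 1689.8 CPM in library 2, Junb 834 and 455 CPM, and Jund 163 and 186 CPM. Of 6 marker genes of type 1 dendritic cells, the lineage that needs Batf3, 3 were above background in both libraries: Itgae (56.2 CPM in library 1 and 22.0 in library 2), Wdfy4 (61.4 and 25.7 CPM) and Cadm1 (23.3 and 36.8 CPM). Clec9a (4.58 and 1.89 CPM) and Tlr3 (5.55 and 2.65 CPM) were above it in library 1 only, and Xcr1 (3.003 and 5.82 CPM) in neither. Zbtb46 (ENSMUSG00000027583, chromosome 2, 181387762 to 181459426, minus strand), a BTB zinc finger factor of conventional dendritic cells, had 2841 counts or 40.6 CPM in library 1 and 860 counts or 20.3 CPM in library 2. The ratio of Zbtb46 was 2.83 (95% interval 2.62 to 3.05) by TMM. By total counts it was 1.997 (1.85 to 2.16), just under 2-fold.

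**Figure D3:**
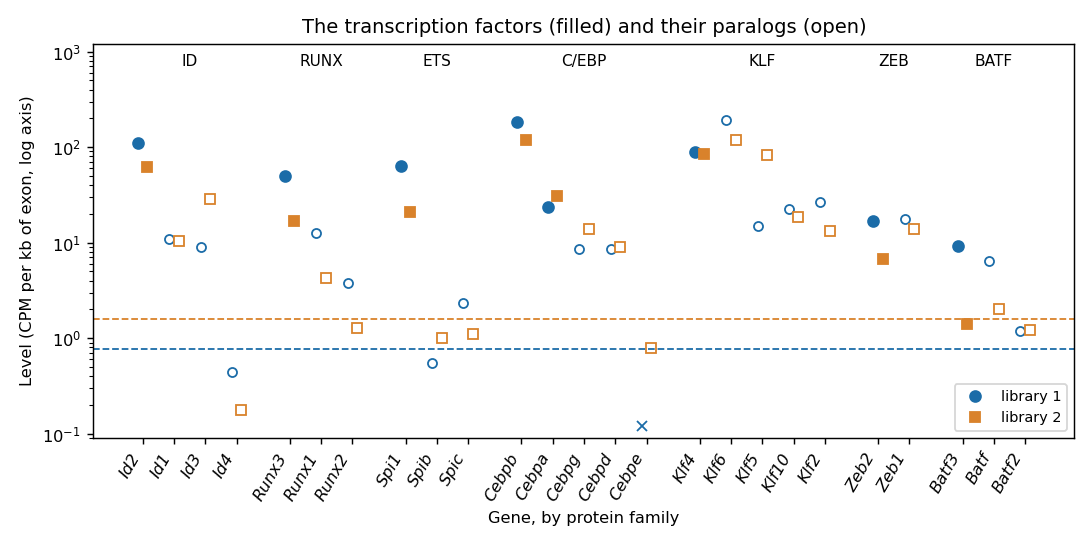
Level in CPM per kb of exon (log axis) of the described factors (filled) and their paralogs (open) by family, library 1 as circles and library 2 as squares; dashed lines are the background of each library and the cross marks a count of 0. Runx3 and Runx1 kept one distance in both libraries (3.93 and 3.90 times), while Id3 and Klf5 were higher in library 2.

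Taken as shares of the summed CPM per kb of the 9 genes, which need no scaling between libraries, Cebpb kept its place, with 33.4% in library 1 and 34.7% in library 2. Klf4 held 16.1% and 24.6%, and Cebpa 4.30% and 8.91%. Spi1 held 11.5% in library 1 and 6.06% in library 2, Runx3 8.97% and 4.82%, and Zeb2 3.02% and 1.96%. Id2 was more even, at 20.1% and 17.9%. Of the 21 pairs of a factor and a paralog, 13 had both genes above background in both libraries: the factor was the higher per kb in 11 of them in both libraries, the lower in 2 (Klf4 to Klf6 and Zeb2 to Zeb1), and the side changed in 0. Per kb of the longest transcripts, the factor was the higher in both libraries in 10 of these 13 pairs, and the side changed in 2: Klf4 to Klf5 (3.85 in library 1 and 0.676 in library 2) and Zeb2 to Zeb1 (1.18 and 0.609).

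Of the 44 partners, paralogs and known targets listed for these factors, 36 were above background in both libraries, 40 in library 1 and 36 in library 2. The shares over all protein-coding genes were 47.3% in both libraries, 56.2% in library 1 and 50.4% in library 2. With TMM, 23 of 43 tested were at least 2-fold higher in library 1, against 12.7% of all genes, and 3 (Id3, Klf5 and Gfi1) at least 2-fold higher in library 2, against 24.8% of all genes. Gfi1 was below background in both libraries, with 0.395 and 1.15 CPM per kb. The median log2 ratio was 1.13 for the list and -0.15 for all genes. With total counts, 15 were at least 2-fold higher in library 1 (5.51% of all genes) and 3 in library 2 (38.9%). Among other myeloid factors, Ikzf1 (Ikaros) had 121 CPM in library 1 and 28.3 in library 2, and Nfil3, which acts upstream of Id2 and Batf3 in lymphoid and dendritic lineages, had 272 and 126 CPM. All 10 genes known as targets of PU.1 or C/EBP factors were above background in both libraries, against 47.3% of protein-coding genes. The log2 TMM ratios of these 10 targets ran from -0.21 (Il6) to 2.39 (Csf3r), with a median of 1.13. Of these targets, 6 were at least 2-fold higher in library 1. The growth factor receptor genes Csf1r (738 CPM in library 1 and 263 in library 2) and Csf2rb (1166 and 413 CPM) and the integrin gene Itgam (526 and 159.6 CPM) had log2 TMM ratios of 1.99, 2.00 and 2.22, beside 2.11 for Spi1. Csf3r (56.3 and 15.2 CPM) had a larger log2 TMM ratio than Spi1, at 2.39. The remaining targets had smaller ratios than Spi1 and than these genes. Lyz2, the lysozyme gene, had 239 and 235 CPM, a log2 TMM ratio of 0.52. Lcn2, a C/EBP target that epithelia also use, had 62.4 and 84.0 CPM (0.07). Ptgs2, the prostaglandin synthase gene, had 537 and 427 CPM (0.83). Each of these ratios comes from the same 2 libraries, so genes with like ratios are not independent evidence of a link.

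**Figure D4:**
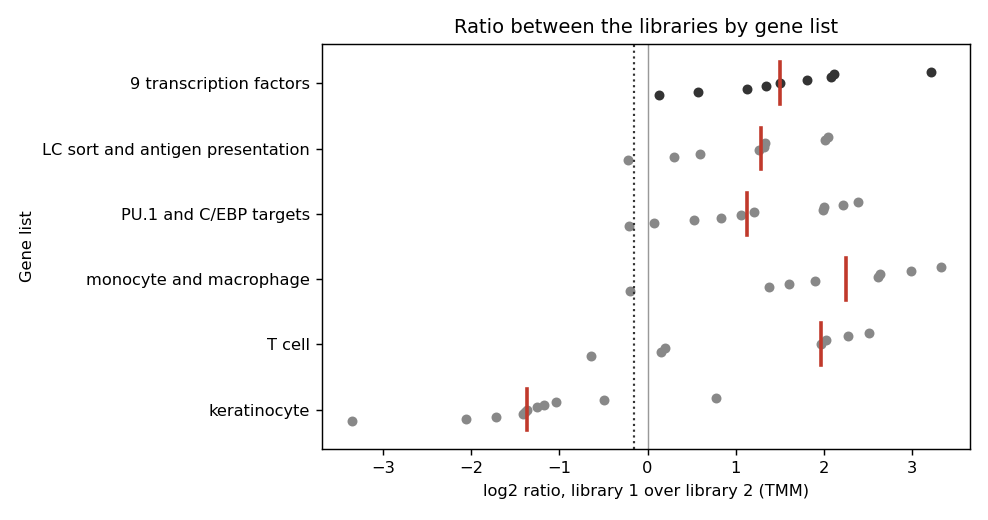
Log2 ratio of library 1 over library 2 (TMM) for each gene of 6 lists, with the list median as a red bar and the median of all genes (-0.15) as a dotted line. The 9 factors lay between 0.13 and 3.21 with a median of 1.50, and the keratinocyte genes had a median of -1.37.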

How the data were processed

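RNA was sequenced from 2 samples of sorted Langerhans cells; per the labels' protocols, 10 to 70 ng RNA per sample went into a stranded pico-input kit. The authors deposited 1 table of raw counts per Ensembl gene, with 1 column per library and no normalization. Per the submitters' processing notes, the tools were HISAT2, StringTie, Trimmomatic and SAMtools on GRCm38; their versions and settings, the annotation release and any use of strand were not stated. The column ending in 2 is library 2, and the column without a number is called library 1. Of 55487 gene rows, 55227 matched GENCODE M21; 1 row of column totals was dropped.

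Levels are counts relative to the total of the library, on one scale (CPM), and, between genes, CPM per kb of the union of exons. Ratios were scaled with TMM in edgeR 4.0.16 (R 4.3.3) over genes with at least 1 CPM in 1 library, and a tested gene with 0 counts in the other counts as at least 2-fold apart; total counts, DESeq2 1.42.0 size factors, other filters, lengths, backgrounds and each library by itself were tried as alternatives. Poisson and binomial intervals (95%) cover counting error only and take counts as independent. The ratio step was tested on simulated data with known changes. Within 1 group of 2 samples no test was possible, and no gene was ranked by likeness of pattern. Every member is named. Of each marker list the text names up to 2 genes with the highest mean CPM, any marker with 0 counts, and the sort markers. All genes of the type 1 and type 2 dendritic cell lists and of the natural killer and innate lymphoid list are named too. Genes with a higher CPM in library 2 are also named for the sort, monocyte and macrophage, and T cell lists. The naming of the full lists and of these genes, the genes named from the lists of partners and targets, and the spelling of the AP-1 motif were chosen after values or matches were seen. The members and lists were chosen with earlier results of these data known.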

Additional observations from a re-analysis of the deposited data

How the results depend on the processing

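With total counts in place of TMM, 4 factors in place of 7 were at least 2-fold apart and their median log2 ratio was 1.00; scaled to Cd207 counts, a choice made after seeing the data, these were 4 and 0.90. With factors from protein-coding genes alone, 6 were at least 2-fold apart and the median was 1.35. Over all genes, 11399 were at least 2-fold apart, against 25610 with no filter on low counts and 6423 among protein-coding genes alone, where more or fewer genes were tested. With 1 library left out, 4 to 7 of the 9 factors kept their place in the order of levels, 8 to 9 were above background, and 36 to 40 listed partners and targets were. Under the 90th percentile, vomeronasal receptor genes or the longest transcript, all 9 factors were above background in both libraries. Of 54 alternative log2 ratios of single factors, the Cd207 scaling included, 33 moved by more than their 95% counting interval. Of 36 alternative mean CPM values of single factors, 4 moved by more than the SD, all with protein-coding totals. The values from 1 library by itself are among the 36 and could not move so far. With 2 libraries, each always lies within the SD of their mean. No paired analysis was possible because there is 1 group. Batf3, with 95 counts in library 2, is limited by background.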
